A study of Mus musculus with 28 samples.

Results

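The Ifit and Oas antiviral effectors were examined as 10 genes chosen by symbol: Ifit1, Ifit2, Ifit3, Oas1a, Oas2, Oas3, Oasl1, Oasl2, Ifi44 and Rsad2. Each had 1 row with a symbol in an expression table of 43143 rows, of which 18509 carried a symbol, and the 10 rows were followed over all 7 groups of 4 libraries. The samples were cultured 3LL cells, a line of Lewis lung carcinoma from the mouse, and the tumors these cells formed in mice. WT cells were unedited. KEAP1-KO cells carried a homozygous 1-base insertion in Keap1, made with CRISPR-Cas9, and came from a single colony. DKO cells were KEAP1-KO cells in which Nrf2 (Nfe2l2) was also disrupted, again a single colony, so they carried the Keap1 mutation too. Tumors grew for 10 days after subcutaneous injection into 6-week-old male albino C57BL/6 mice, which kept their own immune cells. In experiment A each mouse received WT cells on the left flank and KEAP1-KO cells on the right. In experiment B the left flank received KEAP1-KO cells and the right flank DKO cells. Genotype and flank therefore changed together within an experiment, and the KEAP1-KO tumors lay on opposite flanks in the 2 experiments. The labels do not say which tumors shared a mouse or whether the cell libraries came from separate cultures, so p-values measure the spread between these samples, which may be technical for the cells.

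The genes belong to the interferon-stimulated antiviral program. Type I and type III interferons act through JAK kinases to form a transcription factor complex, with STAT2 and IRF9 among its subunits, which binds the interferon-stimulated response element (ISRE) in promoters. The IFIT proteins are tetratricopeptide-repeat proteins, some of which bind viral RNA and block its translation. The OAS enzymes sense double-stranded RNA and make 2'-5'-linked oligoadenylate, a second messenger of the antiviral response. Oasl1 and Oasl2 encode OAS-like proteins, and Oasl1 has been described as a brake on translation of Irf7. Rsad2 encodes viperin, a radical SAM enzyme with broad antiviral action, and Ifi44 is an interferon-induced gene of less well defined function. KEAP1 is the adaptor that marks the stress-response factor NRF2 for degradation, so its loss leaves NRF2 active. In tumors, such genes can be transcribed by the cancer cells or by infiltrating leukocytes.

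The rows differ in what they cover. Ifit1 (ENSMUSG00000034459), Ifit3 (ENSMUSG00000074896) and Oas1a (ENSMUSG00000052776) were gene rows. Ifit2 (ENSMUST00000149829), Oas3 (ENSMUST00000165820) and Oasl2 (ENSMUST00000150361) were protein-coding transcripts of 700, 721 and 632 bases in GENCODE vM21. Oas2 (ENSMUST00000147941) and Ifi44 (ENSMUST00000133888) were retained-intron transcripts, Oasl1 (ENSMUST00000155274) was a processed transcript, and Rsad2 (ENSMUST00000137792) was a transcript subject to nonsense-mediated decay. A value below is therefore that of the named row and not of all RNA of the gene. A further 7 rows of Oas2, Oas3 and Oasl2 carried no symbol. Of these, 3 rows of Oasl2 were tested in tumors, at -2.92 (adjusted p = 6.78e-06), -2.80 (adjusted p = 0.000199) and -0.44 (adjusted p = 0.655) for KEAP1-KO minus WT and at 2.21, 1.65 and 0.87 for DKO minus KEAP1-KO, in limma's fit. The Ifit genes lie on chromosome 19, the Oas and Oasl genes on chromosome 5, Ifi44 on chromosome 3 and Rsad2 on chromosome 12. Ifit3 and Oas1a have near-identical copies, among them Ifit3b and Oas1g, with which reads may have been split. The rows of Oas3 and Oasl1 begin 21400 and 12785 bases downstream of the RefSeq starts used next.

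Promoter letters were read for the genes that moved together in tumors, because the ISRE is the element through which interferon acts on this program. RefSeq sequences (GRCm38.p6) from 250 bases before to 50 bases after the start were at hand for 9 members, and Oas2 had no entry. The ISRE was searched as GAAA, any 2 bases and GAAA again, or, on the other strand, TTTC, any 2 bases and TTTC. These letters stood in 3.44% of 32851 promoters and in 5 of the 9 members: Ifit1, Ifit3, Oas1a, Oas3 and Rsad2. Ifit2, which differed from the other members in its level in cultured cells, is shown beside Ifit1 and Ifit3 as the 250 bases before its first RefSeq start, where the transcript of its row also begins. Capitals mark the ISRE letters, and sequences run 5' to 3' on the gene's strand.
Ifit1, chr19:34640639-34640888, plus strand: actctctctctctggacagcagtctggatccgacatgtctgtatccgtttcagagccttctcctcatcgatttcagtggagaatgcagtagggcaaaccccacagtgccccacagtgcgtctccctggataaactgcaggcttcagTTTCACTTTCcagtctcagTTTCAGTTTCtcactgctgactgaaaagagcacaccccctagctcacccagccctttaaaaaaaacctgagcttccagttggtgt
Ifit3, chr19:34583279-34583528, plus strand: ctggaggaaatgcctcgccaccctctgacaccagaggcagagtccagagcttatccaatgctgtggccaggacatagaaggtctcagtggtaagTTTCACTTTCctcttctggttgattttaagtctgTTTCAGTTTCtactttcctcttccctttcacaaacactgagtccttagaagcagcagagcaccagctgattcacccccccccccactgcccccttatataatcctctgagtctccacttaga
Ifit2, chr19:34550444-34550693, plus strand: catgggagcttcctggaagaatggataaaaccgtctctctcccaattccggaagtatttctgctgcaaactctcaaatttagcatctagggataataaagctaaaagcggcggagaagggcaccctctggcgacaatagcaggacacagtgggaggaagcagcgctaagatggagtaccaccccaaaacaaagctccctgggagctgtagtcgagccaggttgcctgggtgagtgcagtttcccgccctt
The matches of the other 3 genes are shown with 10 bases on each side.
Oas1a, chr5:120907520-120907555, minus strand: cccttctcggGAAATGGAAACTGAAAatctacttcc
Oas3, chr5:120777715-120777744, minus strand: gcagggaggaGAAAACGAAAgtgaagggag
Rsad2, chr12:26456553-26456582, minus strand: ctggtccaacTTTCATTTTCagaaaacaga

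Ifit1 and Ifit3 each held 2 matches on the opposite strand, beginning 104 and 85 bases before the start in Ifit1 and 156 and 122 bases before it in Ifit3. The 2 matches of Oas1a overlapped by 4 bases and lay within the 20 bases before the start. No match was found in either Ifit2 promoter or in those of Oasl1, Oasl2 and Ifi44, which says only that these exact letters are not in those windows. For comparison, the letters stood in the promoters of 10 of 30 other antiviral interferon-stimulated genes, 10 of 12 genes of an interferon gamma list and 0 of 5 leukocyte markers. The core of the antioxidant response element to which NRF2 binds was searched as TGACNNNGC or GCNNNGTCA. It stood in 12.4% of promoters and in 3 of the 9 members, Oasl2, Ifi44 and Rsad2. The match of Ifi44 began 11 bases after the start. For the other antiviral, interferon gamma and leukocyte lists the counts were 4 of 30, 3 of 12 and 1 of 5. A match is a run of letters and was not tested for binding.

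Expression is given below as normalized counts, recovered from deposited values that equal log2(normalized count + 4), so a log2 value of 2 is a count of 0 and differences understate the change of rows with few reads. Libraries held 4222363 to 7524310 assigned reads. Keap1 lay at 649 to 751 normalized counts in WT cells, at 436 to 501 in WT tumors and at 136 to 229 in all KEAP1-KO and DKO libraries. The NRF2 target Nqo1 lay at 3890 to 5943 in the KEAP1-KO libraries and at 34.1 to 112 in the DKO libraries, against 474 to 563 in WT cells and 93.2 to 129 in WT tumors. The Nfe2l2 row was a processed transcript and does not check the Nrf2 edit. Leukocyte RNA was nearly absent from the cells, where 6 leukocyte markers summed to 2.28 to 8.58 normalized counts, and abundant in tumors. The summed count was 2811 to 3502 in WT tumors, 639 to 713 in KEAP1-KO tumors of experiment A, 1039 to 1377 in those of experiment B and 1935 to 3143 in DKO tumors. Of 6 epithelial carcinoma markers 4 were listed, with a summed count of 1497 to 5252 per library, while Epcam and Nkx2-1 were not listed. The extraction label names liver, but the hepatocyte gene Alb stood at 0 to 6.76 normalized counts over the 28 libraries.

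The first comparison asked how the antiviral rows of KEAP1-KO tumors differed from those of WT tumors in experiment A. All 10 were lower in KEAP1-KO tumors, and in none of them did the groups overlap. Of 34215 rows tested, 7.49% were called lower and 13.1% were called in either direction at a Benjamini-Hochberg adjusted p under 0.05 with limma. Of 29461 rows compared for overlap, 10.01% lay lower in every KEAP1-KO tumor than in any WT tumor. The median difference of the 10 rows was -2.97 on the log2 scale, against -0.027 over all rows.

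Among the IFIT genes, which act on viral RNA, Ifit1 had the widest gap. Its normalized counts were 137, 190, 63.1 and 56.9 in WT tumors and 2.22, 2.31, 0.966 and 1.95 in KEAP1-KO tumors. The KEAP1-KO values rest on 7 reads over 4 libraries. Ifit1 averaged 112 ± 63.5 against 1.86 ± 0.617 (SD, n = 4), and the log2 difference was -4.14 (SE 0.41, adjusted p = 4.39e-06). Every WT tumor was far above every KEAP1-KO tumor. Ifit3 read 144, 116, 58.5 and 39.9 in WT tumors and 5.56, 1.16, 7.73 and 2.92 in KEAP1-KO tumors, with means of 89.6 ± 48.6 and 4.34 ± 2.89 (SD, n = 4). The log2 difference of Ifit3 was -3.39 (SE 0.42, adjusted p = 3.46e-05). Ifit2 moved least of the 10, from 273, 358, 233 and 137 in WT tumors to 67.8, 75.2, 114 and 59.4 in KEAP1-KO tumors. Its lowest WT tumor, at 137, stood above its highest KEAP1-KO tumor, at 114, and the log2 difference was -1.57 (SE 0.26, adjusted p = 0.000656).

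The OAS synthetases fell together. Oas1a ranged from 68.8 to 174 in WT tumors and from 7.73 to 11.1 in KEAP1-KO tumors, a log2 difference of -3.14 (adjusted p = 7.52e-06). Oas2 read 182, 171, 96.9 and 96.8 in WT tumors and 15.6, 8.09, 14.5 and 14.6 in KEAP1-KO tumors, with a log2 difference of -3.00 (SE 0.29, adjusted p = 3.05e-06). The 2 higher and the 2 lower WT tumors of Oas2 stood apart from each other, yet every one was above the KEAP1-KO tumors. Oas3, the longest OAS enzyme, ranged from 108 to 284 against 17.4 to 24.3, with a log2 difference of -2.89 (adjusted p = 1.31e-05).

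The OAS-like genes moved in the same direction. Oasl2 read 183, 148, 85.0 and 82.3 in WT tumors and 12.2, 10.4, 0 and 2.92 in KEAP1-KO tumors, a log2 difference of -3.76 (SE 0.45, adjusted p = 2.48e-05). The KEAP1-KO tumors of this row split into a pair near 11 counts and a pair at or near 0. Oasl1 ranged from 32.3 to 72.4 against 3.89 to 11.6, with a log2 difference of -2.31 (adjusted p = 0.000107). Rsad2, the viperin gene, read 177, 177, 99.6 and 107 in WT tumors and 21.1, 12.7, 9.66 and 14.6 in KEAP1-KO tumors, with a log2 difference of -2.95 (SE 0.32, adjusted p = 1.06e-05). Ifi44 read 62.9, 84.8, 32.9 and 22.9 against 11.1, 5.78, 4.83 and 4.87, with a log2 difference of -2.25 (SE 0.39, adjusted p = 0.000837).

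**Figure D1:**
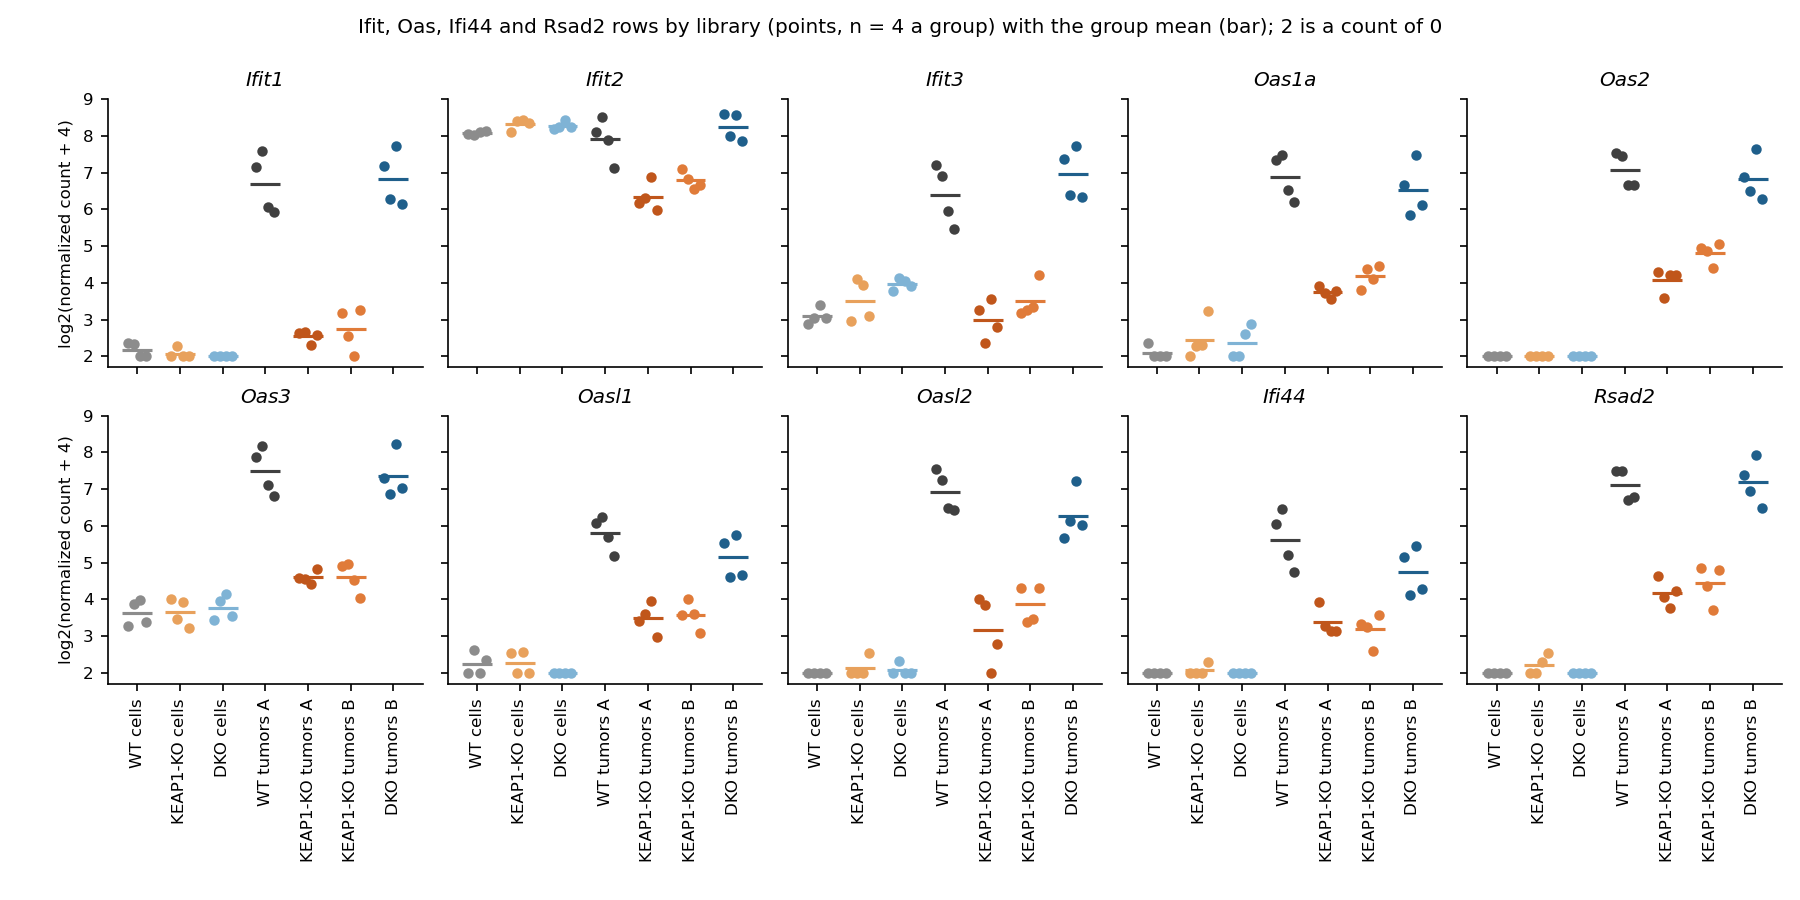
Each panel plots 1 row, with log2(normalized count + 4) on the vertical axis, the 7 groups on the horizontal axis, a point per library and a bar at the group mean (n = 4). In all 10 panels both sets of KEAP1-KO tumors lie below the WT and DKO tumors, and Ifit2 is the row with high values in the cultured cells.

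Leukocyte RNA moved with this result. All 6 leukocyte markers fell in KEAP1-KO tumors of experiment A, with a median log2 difference of -2.28, and so did 12 of 13 macrophage and monocyte markers, with a median of -1.76. Of the leukocyte list, Cd52 fell by 3.18 and Cd53 by 1.81 on the log2 scale, with Ptprc, which encodes the pan-leukocyte antigen CD45, at -2.32. Of the macrophage list, the called values ran from -3.75 for Ccr2 to -0.38 for Cd68. In bulk tumor RNA, fewer leukocytes and less antiviral RNA per cell cannot be told apart. As a description, the mean log2 value of the 10 members minus that of the 6 leukocyte markers ran from -2.41 to -1.46 in WT tumors and from -2.78 to -2.23 in KEAP1-KO tumors of experiment A, ranges that overlapped.

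The second comparison asked what disrupting Nrf2 in KEAP1-KO cells did to these rows in experiment B. All 10 were higher in DKO tumors than in KEAP1-KO tumors, again without overlap, where 4.22% of the 34215 rows were called higher. Of 29696 rows compared for overlap, 7.88% lay higher in every DKO tumor. The middle differences of the 10 rows were 2.34 for Oas1a and 2.39 for Oasl2 on the log2 scale, against a median of 0 over all rows.

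Ifit1 read 4.99, 1.86, 0 and 5.65 in KEAP1-KO tumors and 141, 73.1, 209 and 67.4 in DKO tumors. The KEAP1-KO values rest on 12 reads over 4 libraries, and the log2 difference was 4.09 (SE 0.41, adjusted p = 9.26e-06). Ifit3 read 4.99, 5.59, 6.09 and 14.7 against 161, 80.4, 209 and 76.7, a log2 difference of 3.46 (SE 0.42, adjusted p = 5.19e-05). Ifit2 read 134, 109, 90.3 and 97.2 against 379, 249, 376 and 229, a log2 difference of 1.46 (SE 0.26, adjusted p = 0.0019). In all 3 IFIT rows, DKO replicates 1 and 3 were the higher pair.

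Among the synthetases, Oas3 rose from 12.4 to 27 in KEAP1-KO tumors to 112 to 297 in DKO tumors, with a log2 difference of 2.75 (adjusted p = 3.85e-05). Oas1a rose from 9.98 to 18.1 to 53.6 to 174, with a log2 difference of 2.34 (adjusted p = 0.000231). Oas2 read 26.9, 25.1, 17.2 and 29.4 against 113, 86.5, 194 and 73.3, with a log2 difference of 2.0 (SE 0.29, adjusted p = 0.000283). Rsad2 read 24.9, 16.8, 9.13 and 23.7 against 163, 120, 241 and 86.1, with a log2 difference of 2.76 (SE 0.32, adjusted p = 3.76e-05).

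The OAS-like genes and Ifi44 were also higher in DKO tumors. Oasl2 read 16, 6.52, 7.10 and 15.8 in KEAP1-KO tumors and 47.1, 65.9, 147 and 61.4 in DKO tumors, with a log2 difference of 2.39 (SE 0.45, adjusted p = 0.0024). Oasl2 was called in 18 of 19 alternatives, with differences from 2.07 to 2.76, and at a pseudocount of 0.4 its difference was 2.76 with an adjusted p of 0.0508. Oasl1 ranged from 4.52 to 12.1 against 20.6 to 50.2, a log2 difference of 1.58 (adjusted p = 0.00456). Ifi44 read 5.99, 5.59, 2.03 and 7.91 against 31.8, 13.4, 39.7 and 15.3, with a log2 difference of 1.56 (SE 0.39, adjusted p = 0.0174). Ifi44 was no longer called without KEAP1-KO tumors B replicate 3, where the difference was 1.37, without DKO tumors B replicate 1, where it was 1.43, or without DKO tumors B replicate 3, where it was 1.33.

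All 6 leukocyte markers rose in DKO tumors, with a median log2 difference of 1.11, and 9 of 13 macrophage and monocyte markers rose, with a median of 0.92. The mean log2 value of the members minus that of the leukocyte markers ran from -3.23 to -2.82 in the KEAP1-KO tumors and from -2.22 to -1.22 in the DKO tumors of experiment B. These ranges did not overlap, unlike those of experiment A. The KEAP1-KO tumors of experiment A, at -2.78 to -2.23, did not overlap those of experiment B either, although both had the same genotype. Several members had few reads in KEAP1-KO tumors, where the log2 scale compresses differences, so the gap is not a measure of antiviral RNA per leukocyte. Markers of other cell types moved as well. All 4 NK cell markers tested fell in experiment A (median -1.95) and 3 rose in experiment B (median 1.57). The 6 NK markers listed summed to 71.9 to 114 normalized counts in WT tumors, 0 to 12.6 and 2.99 to 14.0 in KEAP1-KO tumors of experiments A and B and 37.5 to 84.2 in DKO tumors, with Ncr1 and Klrb1c at 0 in all KEAP1-KO tumors of the first set and Gzma at 0 in all of the second. Of 7 fibroblast markers, 2 fell in experiment A and 3 rose in experiment B. Summed counts were 4814 to 12057 in WT tumors, 1961 to 4776 and 2811 to 3527 in the KEAP1-KO sets and 10750 to 14597 in DKO tumors. Some of these markers also changed between the cultured lines. Dcn was called at -1.02 for KEAP1-KO minus WT cells and 1.67 for DKO minus KEAP1-KO cells, and Col3a1 at 1.25 and 0.40. Of 5 neutrophil markers 4 fell in experiment A and 1 rose in experiment B, and 0 of 5 endothelial markers were called in either with limma. Lymphocyte and dendritic cell lists were mixed. Of 5 dendritic cell markers, Ccr7 (-1.63) and Itgax (-0.83) fell in experiment A, and in experiment B Ccr7 rose by 1.03 while Flt3 was lower at -1.53. Of 2 T cell markers tested, Cd4 fell in experiment A (-1.65) and stood at 0.19 in experiment B (adjusted p = 0.811). Of 2 B cell markers tested, Pax5 rose by 2.36 in experiment A and stood at -0.29 in experiment B (adjusted p = 0.503). Pax5 was also higher in cultured KEAP1-KO cells than in WT cells, by 3.32 (adjusted p = 6.06e-09, limma). The other, Ms4a1, stood at 0.27 in experiment A and 0.29 in experiment B and was not called. The 1 plasmacytoid dendritic cell marker tested, Ccr9, was not called. How far the content of leukocytes or of these other cell types accounts for the member values was not tested.

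**Figure D2:**
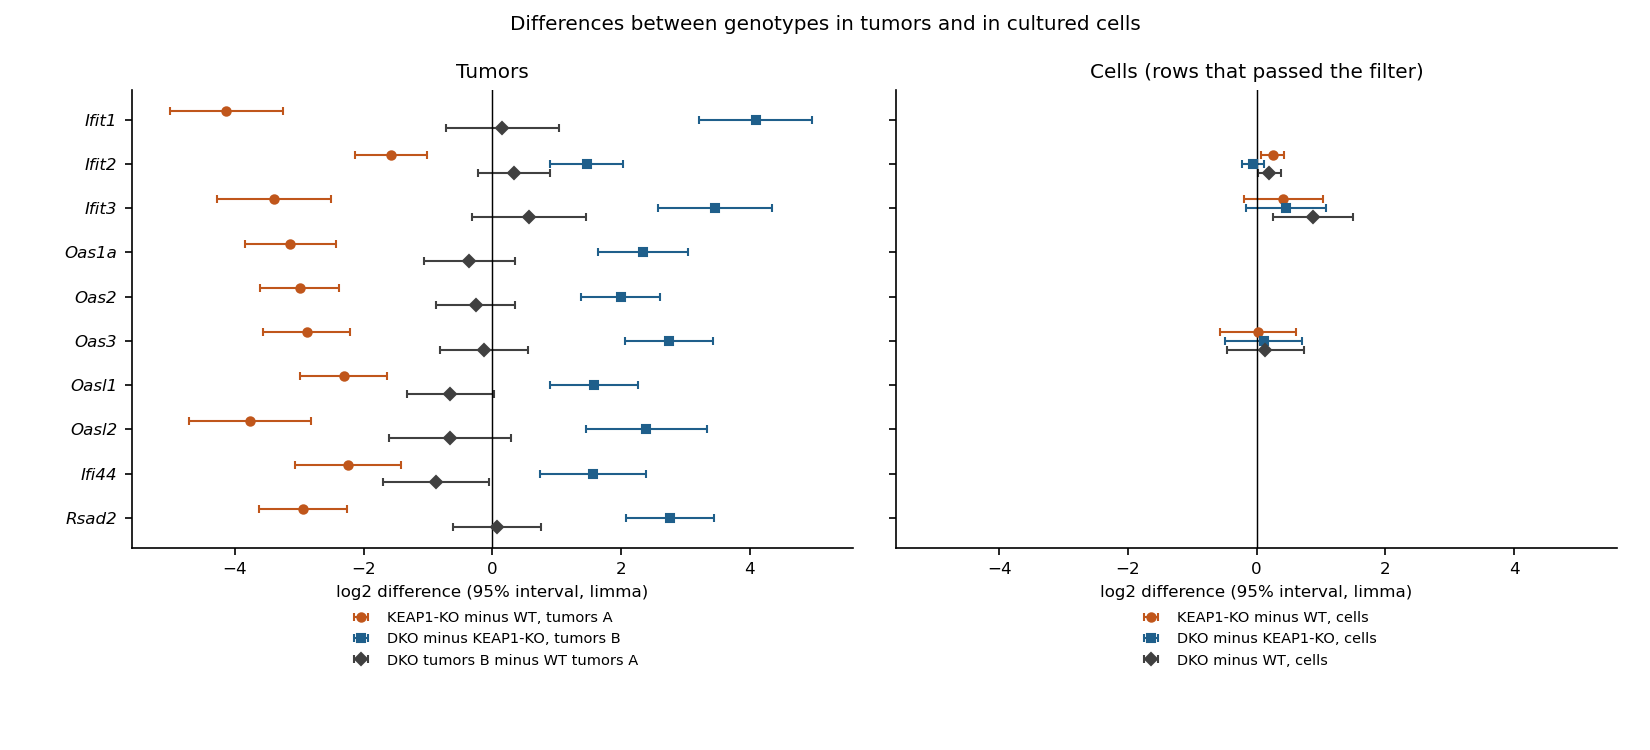
Log2 differences between genotypes with 95% intervals from limma are plotted for each row, on the left for tumors and on the right for the 3 rows that passed the filter in cultured cells. In tumors the KEAP1-KO minus WT values lie between -4.14 and -1.57 and the DKO minus KEAP1-KO values between 1.46 and 4.09, while the values in cells lie between -0.06 and 0.88.

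The 2 sets of KEAP1-KO tumors came from separate experiments and opposite flanks and allow a check of one against the other. In both experiments all 10 rows were lower on the flank that held KEAP1-KO tumors, so that right minus left ran from -4.14 to -1.57 on the log2 scale in experiment A and from 1.46 to 4.09 in experiment B. None of the 10 rows was called between them with limma, where 0.164% of rows were called, and 1 row, Oas2, had an unadjusted p under 0.05, as 7.69% of rows did. Oas2 was also the only row whose groups did not overlap, at 8.09 to 15.6 in experiment A and 17.2 to 29.4 in experiment B, with a log2 difference of 0.74 (95% interval 0.13 to 1.36, adjusted p = 0.541). Of 29002 rows compared for overlap, 2.71% lay higher in every tumor of experiment B. The interval was widest for Oasl2, from -0.24 to 1.66, and 9 of the 10 differences were above 0. Of the leukocyte markers 3 of 6 were called higher in experiment B (median 0.81), and 6 of 13 macrophage markers were called higher (median 0.76).

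DKO tumors of experiment B were then set against WT tumors of experiment A, a comparison in which genotype, flank and experiment cannot be told apart. None of the 10 rows was called with limma, all 10 overlapped, and 10.6% of rows were called. Differences ran from -0.87 for Ifi44 (95% interval -1.70 to -0.05, adjusted p = 0.187) to 0.57 for Ifit3 (95% interval -0.31 to 1.46, adjusted p = 0.461). Ifi44 was the 1 row with an unadjusted p under 0.05, as 23.2% of rows had. For Ifit1 the difference was 0.15 (95% interval -0.73 to 1.03).

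The sum of the KEAP1 effect of experiment A and the NRF2 effect of experiment B compares each pair within its own experiment. It was not called for any of the 10 rows with limma, where 5.14% of rows were called. Oasl2, at -1.37 (95% interval -2.71 to -0.03, adjusted p = 0.263), and Oas2, at -1.0 (95% interval -1.87 to -0.13, adjusted p = 0.197), had an unadjusted p under 0.05, as 18.2% of rows had. Ifit1 was at -0.05 and Ifit3 at 0.07, and 9 of the 10 sums were below 0.

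In cultured cells only Ifit2, Ifit3 and Oas3 had enough reads to be tested, since a row needed 5 normalized counts in at least 4 libraries. None was called in any of 3 comparisons with limma, in which 15.5%, 8.83% and 17.7% of 29744 rows were called for KEAP1-KO minus WT, DKO minus KEAP1-KO and DKO minus WT. At an unadjusted p under 0.05 the counts were 1, 0 and 2 of 3 rows, against 26.8%, 19.6% and 29.1% of all rows. Ifit2 for KEAP1-KO minus WT and Ifit3 for DKO minus WT were called under some of the other settings tried. Ifit2 read 261, 254, 270 and 277 in WT cells, 272, 333, 343 and 323 in KEAP1-KO cells and 284, 296, 341 and 300 in DKO cells. The KEAP1-KO cells overlapped WT cells by a single library, and the log2 difference was 0.25 (95% interval 0.08 to 0.43, adjusted p = 0.0558). Without KEAP1-KO cells replicate 1 the difference of Ifit2 was 0.32 and was called.

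Ifit3 read 3.42, 4.32, 6.50 and 4.29 in WT cells, 3.72, 13.1, 11.3 and 4.48 in KEAP1-KO cells and 9.77, 13.7, 12.6 and 11.1 in DKO cells. All DKO cells were above all WT cells, with a log2 difference of 0.88 (95% interval 0.26 to 1.49, adjusted p = 0.0524). Ifit2 and Ifit3 were the 2 of 10 rows without overlap between DKO and WT cells, where 10.6% of 26629 rows compared for overlap lay higher in every DKO library. Oas3 ranged from 5.37 to 13.6 over all 12 cell libraries, and its 3 differences lay between 0.02 and 0.14.

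The other 7 rows were at or near 0 in cells. Oas2 stood at 0 in all 12 libraries. Rsad2 and Ifi44 stood at 0 in all WT and DKO cells and had 3 reads and 1 read in KEAP1-KO cells. Ifit1 had 2 reads in WT cells, 1 in KEAP1-KO cells and 0 in DKO cells. Oasl1 had 3, 4 and 0 reads, Oasl2 0, 2 and 1 reads and Oas1a 1, 8 and 6 reads in WT, KEAP1-KO and DKO cells, and 6 of the 8 Oas1a reads came from KEAP1-KO replicate 4. These rows were too low to be tested between the lines.

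Each tumor group was next compared with the cells of its own genotype, in 1 fit over 28 libraries and 37246 rows. Tumors hold host cells and cultures do not, so these values combine a change of cells with any change within cells. The median of all rows was 0.164 to 0.226 in these 4 comparisons and moved by -0.394 to 0.295 under other scalings. In WT tumors 9 rows were higher than in WT cells, where 24.7% of rows were called higher, and in DKO tumors 9 were higher than in DKO cells, where 27.6% were. Rsad2 was at least 42.7-fold higher in WT tumors and at least 51.8-fold higher in DKO tumors than a floor of 3 reads in each cell library. Against the same floor, Oas2 was at least 41.6-fold higher in WT tumors and at least 39.6-fold higher in DKO tumors. Oas3 had means of 8.71 ± 3.10 in WT cells and 189 ± 82.4 in WT tumors, a log2 difference of 3.85 (adjusted p = 8.42e-11).

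Ifit2 was the exception among the 10. It averaged 265 ± 10.1 normalized counts in WT cells and 250.0 ± 91.9 in WT tumors, with a log2 difference of -0.16 (95% interval -0.61 to 0.28, adjusted p = 0.6). The sign of this value depended on scaling, at 0.21 after rescaling without the 20 highest rows and -0.56, now called, after median centring, scalings that moved the median of all rows by 0.243 and -0.394. DKO cells and DKO tumors averaged 305 ± 24.4 and 308 ± 80.4, a log2 difference of -0.02 (95% interval -0.46 to 0.42), which turned to 0.43 after that rescaling and 0.29 after quantile normalization.

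In KEAP1-KO tumors the rows separated by gene. Ifit2 was lower than in KEAP1-KO cells, at 318 ± 31.6 in cells, 79.1 ± 24.2 in tumors of experiment A and 108 ± 19.1 in tumors of experiment B. Its log2 differences were -1.99 (95% interval -2.43 to -1.55, adjusted p = 2.53e-08) and -1.54 (95% interval -1.98 to -1.10, adjusted p = 1.76e-06), where 15.8% and 14.9% of rows were called lower. Ifit1, at 0.47 and 0.68, and Ifit3, at -0.52 and -0.02, were not called in either set. The Ifit3 value of experiment B turned to 0.21 after rescaling without the 20 highest rows. The other 7 rows were higher in both sets, where 23.9% of rows were called higher in each.

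Oas2 led these 7, with log2 differences of 2.08 in experiment A and 2.82 in experiment B and 51 and 97 reads in the tumors against 0 in the cells. Rsad2 followed at 1.97 and 2.22. The lowest were Oas3, at 0.94 and 0.95, and Oasl2 of experiment A, at 1.03 (adjusted p = 0.0293). With only the groups compared in the fit, 5 of 6 testable rows were called in experiment A, 4 of them higher. Oas3 was not called in either set after median centring or quantile normalization or without KEAP1-KO cells replicate 4, and Oasl2 of experiment A was not called after either scaling, with values of 0.80 and 0.93, nor without any of 5 single libraries, with values from 0.75 to 0.99.

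**Figure D3:**
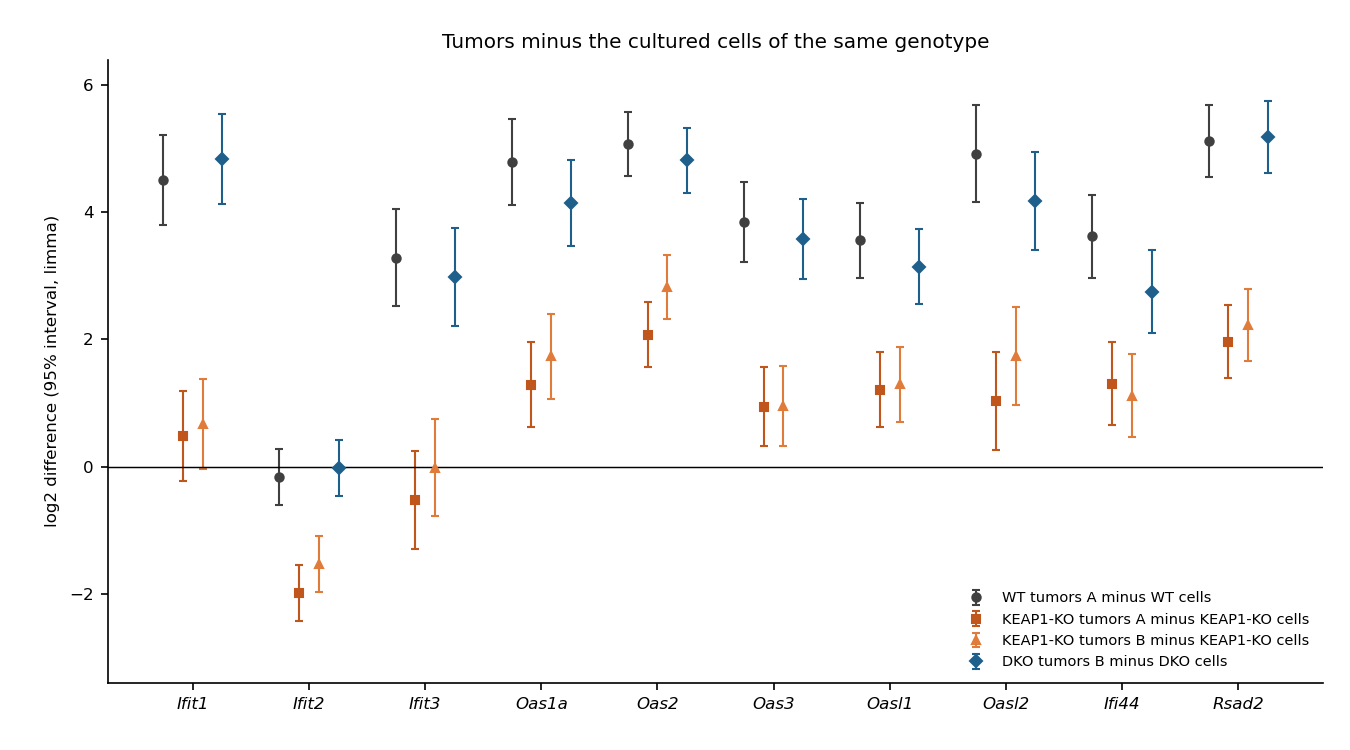
Log2 differences of tumors minus the cultured cells of the same genotype, with 95% intervals from limma, are plotted for each row. KEAP1-KO tumors of both experiments lie below WT and DKO tumors in all 10 rows, and Ifit2 lies near 0 or below it in each tumor group.

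Whether the effect of a genotype differed between tumors and cells could be tested as an interaction for Ifit2, Ifit3 and Oas3, the rows with enough reads in cells. The KEAP1 effect was more negative in tumors of experiment A than in cells for all 3, where 3.88% of rows were called lower by limma. The values were -1.83 for Ifit2 (adjusted p = 0.00025), -3.81 for Ifit3 (adjusted p = 2.29e-05) and -2.91 for Oas3 (adjusted p = 5.34e-05). Ifit3 and Oas3 had few counts in WT cells, so on this scale their KEAP1 effect in cells had little room below 0. Their KEAP1 interaction therefore largely restates the tumor effect, and only Ifit2 had room to fall. The effect of disrupting Nrf2 was more positive in tumors of experiment B than in cells for the same 3, at 1.52 for Ifit2 (adjusted p = 0.00314), 3.00 for Ifit3 (adjusted p = 0.000827) and 2.63 for Oas3 (adjusted p = 0.00037), where 2.12% of rows were called higher. The other 7 rows were at or near 0 in cells, so no cell effect could be measured and their interaction restates the tumor effect.

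Within a group, the members rose and fell together from tumor to tumor. In WT tumors, replicates 1 and 2 were above the group mean for all 10 rows and replicates 3 and 4 below it for all 10. In DKO tumors, replicate 3 was above the mean for all 10 rows and highest for 9, replicate 1 was above it for 8, and replicates 2 and 4 were below it for all 10. As a description over 16 tumors, the 45 pairs of rows had a median Pearson r of 0.676 between their deviations from the group means. The highest was 0.93 and the lowest was 0.114, between Oasl1 and Oasl2. Among KEAP1-KO tumors of experiment B, replicate 3 was above the mean for 1 of the 10 rows and replicate 1 for 8, and in experiment A the replicates were above it for 3 to 7 rows. In those tumors most rows rest on few reads.

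The mean deviation of the 10 members had an r of 0.93 with that of 5 relatives of the same families, 0.91 with other antiviral interferon-stimulated genes and 0.88 with the interferon gamma list, over the same 16 tumors. It had an r of 0.83 with macrophage and monocyte markers, 0.7 with leukocyte markers, 0.62 with fibroblast markers and 0.5 with NK cell markers. It was 0.24 for dendritic cell, -0.23 for endothelial and 0.28 for epithelial markers and -0.15 for library depth. For neutrophil markers it was -0.5, with WT replicate 4 far from the other tumors at 1.27 on the marker score and -0.66 on the member score. All of these share libraries, and the direction of each is a description.

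**Figure D4:**
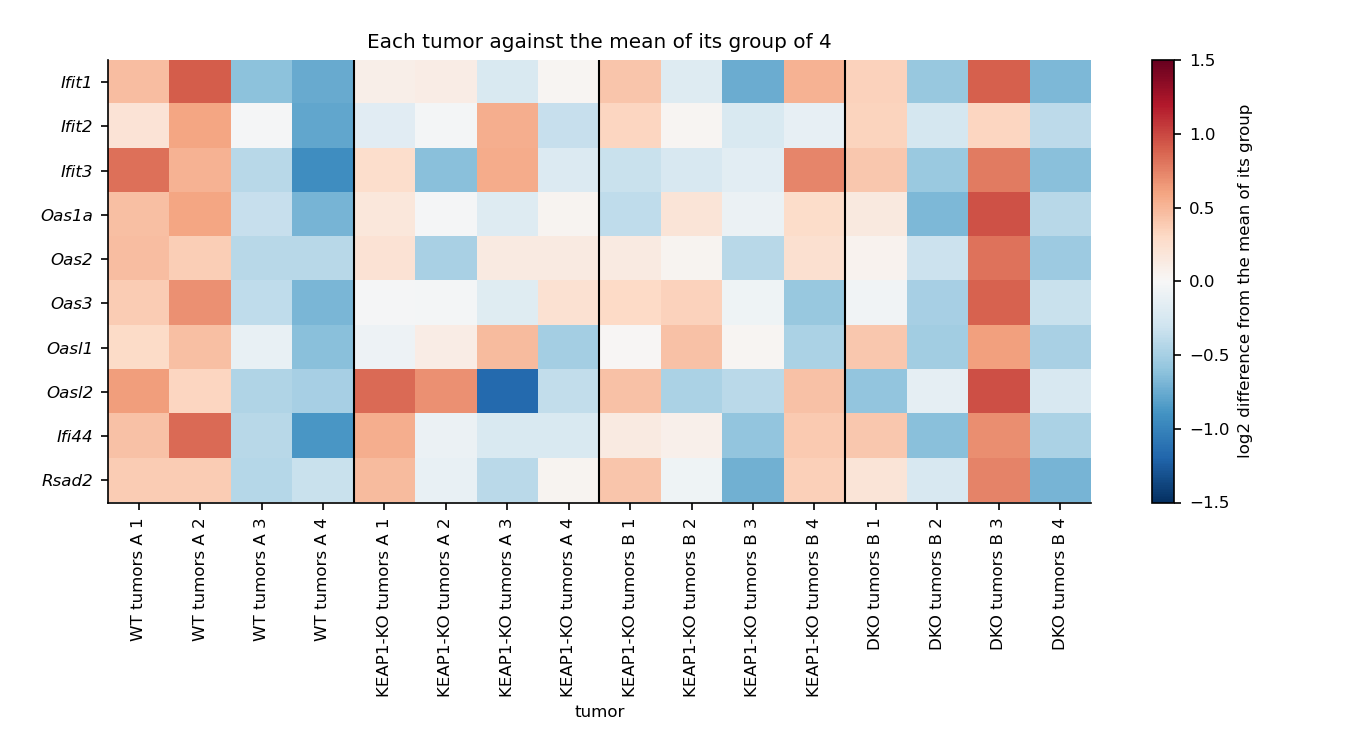
Rows are the 10 members and columns the 16 tumors, and color gives the log2 difference of each tumor from the mean of its group of 4. WT replicates 1 and 2 and DKO replicate 3 are red throughout, and WT replicates 3 and 4 and DKO replicates 2 and 4 are blue throughout.

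Other genes of the pathway, taken as lists, were counted in the same fits. The 5 relatives of the families that were tested, among them Oas1g at -2.76 and Oas1c at -1.20 for KEAP1-KO minus WT, all fell in experiment A and all rose in experiment B. Of 38 other antiviral interferon-stimulated genes, 28 fell in experiment A (median -1.60) and 23 rose in experiment B (median 1.04). Cmpk2, the neighbor of Rsad2, fell most at -3.04, and Ifitm3 fell least at -0.41. Mov10, named after its values were seen as the 1 row of the list lower in experiment B, fell in both experiments, by 1.30 in experiment A and by 1.32 in experiment B. All 16 genes of the interferon gamma list fell in experiment A (median -2.74), from Nos2 at -3.72 to Irgm1 at -1.40, and 14 rose in experiment B (median 2.18).

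Upstream genes gave a mixed picture. None of 7 interferon receptor and JAK kinase rows was called in either experiment with limma (medians -0.32 and -0.13). Among 9 STAT and IRF rows, 6 fell in experiment A and 4 rose in experiment B. Irf7, the factor that amplifies type I interferon, fell by 3.00 on the log2 scale in experiment A, from 92.5 to 235 normalized counts in WT tumors to 12.7 to 21.3, and rose by 2.29 in experiment B. Irf9 fell by 1.52 and rose by 1.22, while Stat2 fell by 1.58 in experiment A and stood at 0.73 in experiment B (adjusted p = 0.221). In cultured KEAP1-KO cells Irf9 was also lower than in WT cells, at -0.62 (adjusted p = 0.00627, limma).

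Of 13 sensors of nucleic acid, 6 fell and 6 rose, with Zbp1 at -3.10 and Myd88 at -1.41 the extremes of those that fell. Of 7 negative regulators, 6 fell and 5 rose. Ptpn6 (-2.31), Samhd1 (-1.07) and Socs1 (-0.34) were also called lower in cultured KEAP1-KO cells than in WT cells, where Ptpn2, Trex1 and Socs3 were not called. Usp18, the protease that dampens interferon receptor signaling, was at -3.28 in experiment A, and Socs3 was at -0.55. Of 17 interferon ligand genes only Ifnz was listed, and it did not pass the filter in tumors.

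In cultured cells most of the wider list was not called, and the rows that were called mostly moved in the direction opposite to the tumors. Of 26 other antiviral interferon-stimulated genes tested, 8 rose and 1 fell in KEAP1-KO cells against WT cells, where 8.13% of all rows were called higher. Against KEAP1-KO cells, 7 of the 26 fell and 0 rose in DKO cells, where 4.85% were called lower. Of 6 interferon gamma genes tested, 3 rose and 3 fell in these 2 comparisons. None of the 5 family relatives had enough reads in cells.

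**Figure D5:**
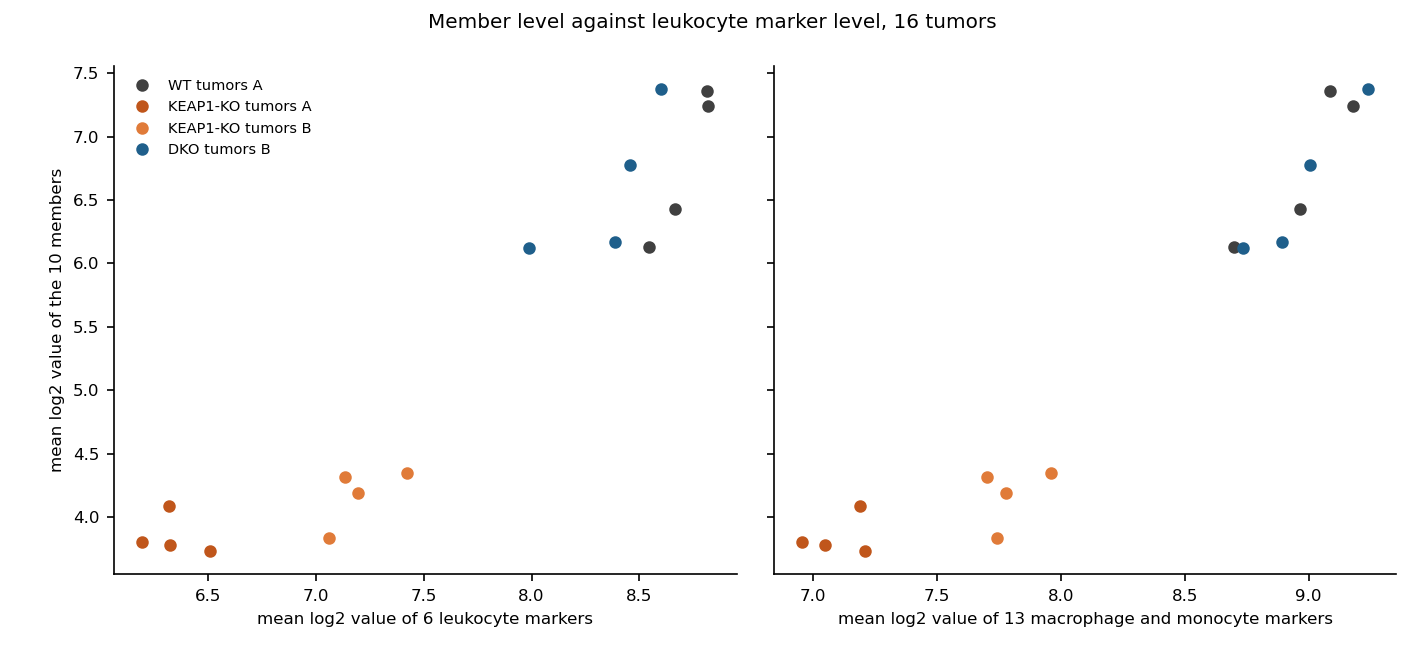
The mean log2 value of the 10 members is plotted against the mean log2 value of 6 leukocyte markers (left) and 13 macrophage and monocyte markers (right) for the 16 tumors, colored by group. KEAP1-KO tumors of experiment B lie to the right of those of experiment A, at 7.06 to 7.42 against 6.20 to 6.51 for leukocyte markers. Their member levels overlap, at 3.83 to 4.35 (mean 4.17) against 3.73 to 4.09 (mean 3.85), near the low end of a scale that compresses differences of few reads.

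The order of the groups by the members' mean log2 value was WT tumors (6.79 ± 0.60), DKO tumors (6.61 ± 0.59), KEAP1-KO tumors of experiment B (4.17 ± 0.24) and of experiment A (3.85 ± 0.16), KEAP1-KO cells (3.07 ± 0.08), DKO cells (3.05 ± 0.08) and WT cells (2.93 ± 0.05; mean ± SD, n = 4). The ranges of the WT and DKO tumors overlapped, as did those of the 2 KEAP1-KO tumor sets and those of the 3 cell lines. Among 16555 other rows with a symbol, the 5 whose 7 group means were most like this pattern by Pearson r were Cfb (0.9986), Napsa (0.9978), Ikzf3 (0.9972), Cd200r4 (0.997) and Pilrb1 (0.9964). Cfb encodes complement factor B and Ikzf3 a lymphocyte transcription factor. Set against the mean of the other members over the 7 groups, r was 0.905 for Ifit3 and 0.959 to 0.997 for Ifit1, the Oas and Oasl rows, Ifi44 and Rsad2, but 0.017 for Ifit2.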

How the data were processed

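RNA was sequenced from 28 libraries, 4 in each of 7 groups assigned from the sample labels. The authors depleted ribosomal RNA, made directional libraries, quantified GENCODE mouse transcripts with Salmon and analysed expression in iDEP. The step that normalized the deposited values and the name of the genome build are not given in the sources used here. The GENCODE release the authors name is another than vM21 (GRCm38), from which row types, lengths and starts were taken here, so these may differ between the releases. The deposited log2 values equal log2(normalized count + 4), although TPM values are described for the study, and all low values checked came out as whole reads within 0.05 read. The table mixes gene and transcript rows, and 0 columns of other samples were left out. A row was tested if 4 or more libraries of the fit reached 5 normalized counts. Groups were compared on the deposited log2 scale with limma 3.58.1 (R 4.3.3, empirical Bayes with trend) in separate fits of tumors, of cells and of all 28 libraries, and p-values were adjusted by the Benjamini-Hochberg method over all rows tested. A row was called at an adjusted p under 0.05. The fit was tested on simulated data. Tables and figures were made with Python 3.11.15, pandas 2.3.3, numpy 2.4.6 and matplotlib 3.10.9. The design allowed for linear values; since the values were log2, the pseudocount of 4 was kept as deposited and 0.4 was tried instead. Library depth was 4222363 to 7524310 reads, so rows with few reads carry counting error not separated from the spread between samples. Every member was named. Of each other list the called rows with the highest and lowest difference in experiment A were named, with the 5 rows most like the members. Keap1, Nfe2l2, Nqo1, Ptprc, Stat2, Irf7 and Irf9 were named too. Some further rows of the lists were named after their values were seen. The members and lists were chosen with earlier results of these data known. Alternatives were another pseudocount, other filters and scalings, fits of only the groups compared or of all libraries, no trend, a replicate block, summed rows of 1 gene (missing symbols completed from GENCODE vM21) and leaving out each library. Some items of the lists are not reported here.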

Additional observations from a re-analysis of the deposited data

Results flagged for a closer look

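In 7 of 60 sets of 4 libraries with any spread, 1 library stood apart from the other 3 by more than the 95% limit for its share of the range, a limit that chance passes in about 1 in 20 groups. On the log2(normalized count + 4) scale these were Ifit1 in KEAP1-KO cells (highest library 2.28), Oas1a in WT cells (highest 2.36), Oasl2 in KEAP1-KO cells (highest 2.53) and in DKO cells (highest 2.34), and Ifi44 in KEAP1-KO cells (highest 2.29), where the other 3 libraries held 0 reads. In tumors, the KEAP1-KO set of experiment B had a high library of 4.22 for Ifit3, and that of experiment A had a low library of 3.60 for Oas2.

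The difference of a genotype effect between tumors and cells was called for Ifit2, Ifit3 and Oas3, by limma's interaction test with adjustment over all rows. Ifit3 and Oas3 had few counts in WT cells and little room to fall there, so for KEAP1-KO minus WT only Ifit2 tests a difference. For KEAP1-KO minus WT, the tumor effect minus the cell effect was -1.83 for Ifit2, -3.81 for Ifit3 and -2.91 for Oas3, and for DKO minus KEAP1-KO it was 1.52, 3.00 and 2.63.

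The other 7 rows were at or near 0 in cells, so their interaction values restate the tumor effect and test no difference. For KEAP1-KO minus WT these values were -4.03 for Ifit1, -3.50 for Oas1a, -3.00 for Oas2, -2.35 for Oasl1, -3.89 for Oasl2, -2.32 for Ifi44 and -3.16 for Rsad2. For DKO minus KEAP1-KO they were 4.16 for Ifit1, 2.42 for Oas1a, 2.0 for Oas2, 1.85 for Oasl1, 2.44 for Oasl2, 1.64 for Ifi44 and 2.97 for Rsad2.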

How the results depend on the processing

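For KEAP1-KO minus WT tumors, every member was called lower in every alternative that tested it (Ifi44 did not pass the filter on the mean). For DKO minus KEAP1-KO tumors 9 to 10 were called higher under both kinds. Of 2399 values of single members under alternatives, 62 changed sign, none of them called in either setting. No test was made of why any value changed. In cells 7 rows had too few reads to be tested, although the median depth of every cell group was above that of every tumor group. Counting error weighs most on Ifit1 in KEAP1-KO tumors of experiment A, with 7 reads over 4 libraries.

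In cells, the count for KEAP1-KO minus WT went from 0 to 1 (Ifit2) with a filter on the mean, quantile normalization, rescaling without the 20 highest rows and rows of 1 gene summed, and ran from 0 to 1 when leaving out a library. The count for DKO minus WT went from 0 to 1 (Ifit3) with that rescaling, only the groups compared, no trend and summed rows. For KEAP1-KO tumors A minus KEAP1-KO cells it was 5 with only the groups compared.

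Samples of the same number correlated at -0.029 to 0.031, so the numbers were not taken to pair them. With a replicate block the count in cells became 1 for KEAP1-KO minus WT (Ifit2) and 1 for DKO minus WT (Ifit3), Ifi44 was no longer called for the NRF2 effect in tumors minus cells (count 9), and no other call of a count changed. In WT and DKO cells every library correlated best with its own number, a hint from the data only.

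Other sign changes were as follows. For KEAP1-KO tumors B minus A, Oas3 was -0.0083 (quantile) and -0.0016 (median centring). For the sum of effects, Ifit1 was 0.0661 (pseudocount 0.4), 0.0755 (quantile) and 0.0339 (rescaled), and Ifit3 was -0.3143 (pseudocount 0.4). For KEAP1-KO minus WT cells, Oas3 was -0.0388 (quantile). For tumors minus cells, Ifit2 was 0.2103 in WT (rescaled) and 0.2877 (quantile) and 0.4307 (rescaled) in DKO, and Ifit3 was 0.2074 in experiment B (rescaled).

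Leaving out each library gave these ranges. For KEAP1-KO tumors B minus A they were -0.1039 to 0.2013 for Oas3, -0.0877 to 0.2414 for Oasl1 and -0.3172 to 0.0102 for Ifi44. For DKO minus WT tumors they were -0.1472 to 0.4563 for Ifit1, -0.4251 to 0.0955 for Oas3 and -0.1796 to 0.3017 for Rsad2. For the sum of effects they were -0.3497 to 0.2538 for Ifit1, -0.3696 to 0.0852 for Ifit2, -0.2408 to 0.3428 for Ifit3, -0.4361 to 0.0845 for Oas3 and -0.4385 to 0.0429 for Rsad2. In cells, Oas3 ran from -0.0968 to 0.1653 for KEAP1-KO minus WT and from -0.0296 to 0.2299 for DKO minus KEAP1-KO. For tumors minus cells, Ifit2 ran from -0.3594 to 0.0954 in WT and from -0.1312 to 0.109 in DKO, and Ifit3 from -0.2617 to 0.1742 in experiment B.

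Over all rows, the share of calls that were higher moved with scaling in tumors B from 47.7% to 61.7%, in DKO minus WT tumors from 43.3% to 60%, in the sum from 37.7% to 49.7%, in WT tumors minus cells from 63.6% to 35.3% or 79.8%, in the KEAP1 interaction from 27.9% to 54.8% and in the NRF2 interaction from 57.7% to 42.7% or 71.6%.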
